A study of Mus musculus with 8 samples.

Results

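Plasmacytoid dendritic cells are the professional interferon producers of the immune system, and 10 genes that mark them in the mouse were followed here through 8 RNA sequencing libraries of sorted bone marrow. The genes were chosen by name as known genes of the cell type and are Siglech, Irf8, Spib, Runx2, Bst2, Klk1, Cox6a2, Pacsin1, Cd209d and Tlr9. They are 10 of the 53647 genes listed in the count files, and all 10 passed the filter on low counts that left 16352 genes for testing. The sort kept mouse marrow cells that lacked lineage markers and carried CD127, the interleukin 7 receptor alpha chain of early lymphoid progenitors and innate lymphoid cells. There were 4 wild-type (WT) libraries, with the genotype label Trerf1 +/+, and 4 knockout (KO) libraries, whose genotype label is spelled Tref1 -/-; no treatment is named. Strain, age, sex and the kind of knockout allele are not given in the sources used here, nor is it said whether the numbered libraries are separate animals, so p-values measure only the spread between these libraries. The question the labels pose is how knockout differs from wild type.

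Plasmacytoid dendritic cells arise in the marrow both from dendritic cell progenitors and from lymphoid progenitors that carry the interleukin 7 receptor. The E protein Tcf4 sets their identity, and Spib, Irf8 and Runx2 work with it or below it. Mature cells sense viral nucleic acids through the endosomal receptors Tlr7 and Tlr9 and answer through Irf7 with type I interferon. Whole-marrow lineage cocktails differ in whether they remove these cells, and the antibodies used here are not given in the sources used here. In a bulk sort such as this, fewer cells of a type and less RNA per cell cannot be told apart.

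Libraries held 31109744 (WT3) to 73414626 (WT4) counts. Trerf1, the targeted gene, was at 29.0, 32.1, 27.1 and 22.3 CPM (counts scaled to library size, with TMM factors) in WT1 to WT4. It was at 13.4, 12.8 and 12.1 CPM in KO1 to KO3 but at 22.1 CPM in the library labelled KO4, beside WT4, so results are also given with that pair left out. Il7r, which encodes the sorted CD127, was present at 269 to 415 CPM. The libraries also differed in Xist, the noncoding RNA that coats and silences an X chromosome, which was at 447 to 768 CPM in WT1, WT4, KO1, KO3 and the library labelled KO4 and from 0.0607 to 0.613 CPM in the 3 others, WT2, WT3 and KO2. Ddx3y, a gene of the Y chromosome, read 82.9 to 102 CPM in those 3 and no more than 0.112 CPM elsewhere.

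Promoter sequence is shown for Siglech, the defining surface lectin, and for Bst2 and Cd209d, whose windows hold the interferon regulatory factor motifs; all 3 genes were among those that split the libraries by Xist. The windows run from 250 bases before to 50 bases after the start in RefSeq's GRCm38.p6 and are written 5′ to 3′ on the gene's strand, with motif matches in capitals, except those to the E-box (below), which stay in lower case. They lie at chr7:55767934-55768233 on the plus strand (Siglech), chr8:71537423-71537722 on the minus strand (Bst2) and chr8:3878450-3878749 on the minus strand (Cd209d).
Siglech: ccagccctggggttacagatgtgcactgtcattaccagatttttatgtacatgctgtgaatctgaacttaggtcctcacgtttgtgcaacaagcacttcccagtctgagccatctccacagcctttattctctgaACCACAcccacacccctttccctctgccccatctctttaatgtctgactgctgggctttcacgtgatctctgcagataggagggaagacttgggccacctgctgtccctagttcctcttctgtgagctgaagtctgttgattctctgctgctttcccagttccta
Bst2: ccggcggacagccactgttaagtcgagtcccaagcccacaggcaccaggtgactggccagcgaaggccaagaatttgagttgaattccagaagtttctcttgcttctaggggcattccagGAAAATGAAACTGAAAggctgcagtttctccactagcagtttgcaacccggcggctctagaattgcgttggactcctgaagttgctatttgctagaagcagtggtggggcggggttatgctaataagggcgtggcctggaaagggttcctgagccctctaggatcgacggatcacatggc
Cd209d: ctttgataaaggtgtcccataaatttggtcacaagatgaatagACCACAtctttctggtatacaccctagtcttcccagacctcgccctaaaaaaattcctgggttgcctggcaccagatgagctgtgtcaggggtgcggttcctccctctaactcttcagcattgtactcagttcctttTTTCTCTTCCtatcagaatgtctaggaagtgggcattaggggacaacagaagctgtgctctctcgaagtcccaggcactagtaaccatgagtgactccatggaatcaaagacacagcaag
In Siglech the capitals mark 1 match to the RUNX motif TGTGGT, read on the other strand. In Bst2 they mark 2 overlapping matches to the interferon regulatory factor repeat, which is GAAA, 2 free bases and GAAA again. In Cd209d they mark 1 RUNX match and 1 match to the composite of an ETS factor and an interferon regulatory factor (GGAA, 2 free bases, GAAA), both on the other strand. Of 32851 RefSeq promoter windows of the same length, 16.8% held TGTGGT, 3.44% held the repeat and 2.72% held the composite on either strand. Among the 9 of the 10 genes with a window, 4 held TGTGGT, 1 the repeat and 1 the composite, and Tlr9 alone held the PU.1 and SPI-B form GAGGAAG, found in 13.6% of all windows. The E-box CANNTG, the letters an E protein such as Tcf4 reads, was found in 8 of the 9 genes and in 72.3% of all windows. The 9 genes have 10 windows, because Irf8 has 2, and only the second window of Irf8 held an E-box. The count by gene is therefore not quite like the share by window. These matches are letters in a window and not measured binding.

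Several of these genes stood among the most abundant transcripts of the sort. Levels of different genes were set side by side only per length, as RPKM (TMM-scaled CPM per kilobase of exon). Cox6a2, a cytochrome oxidase subunit best known from muscle, averaged 890 RPKM and ranked 25 of 16352 genes, and Bst2, the tetherin that plasmacytoid dendritic cells display constitutively, averaged 869 RPKM and ranked 26. Irf8 followed at 513 RPKM and rank 57 and Siglech, the lectin that defines the mouse cells, at 439 RPKM and rank 74. These 4 thus stood in the top 1% of genes tested.
Spib ranked 277 at 164 RPKM and Runx2 ranked 1094 at 55.4 RPKM. Klk1, a kallikrein protease, ranked 1730 at 37.4 RPKM, and Pacsin1, an adaptor of membrane trafficking, ranked 3144 at 19.7 RPKM. Cd209d, a C-type lectin, ranked 3547 at 16.9 RPKM. The nucleic acid sensor Tlr9 was the exception, at rank 9774 and 2.09 RPKM, below the median of 3.74 RPKM of all genes tested. Within a library the rank moved little for Cox6a2 (22 to 32) and Bst2 (17 to 38) and widely for Klk1 (503 to 6157). By the RSEM TPM values that the authors deposited, Irf8 ranked 53, Bst2 83, Cox6a2 108 and Siglech 120, and Tlr9 again came last, at 11241.

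**Figure D1:**
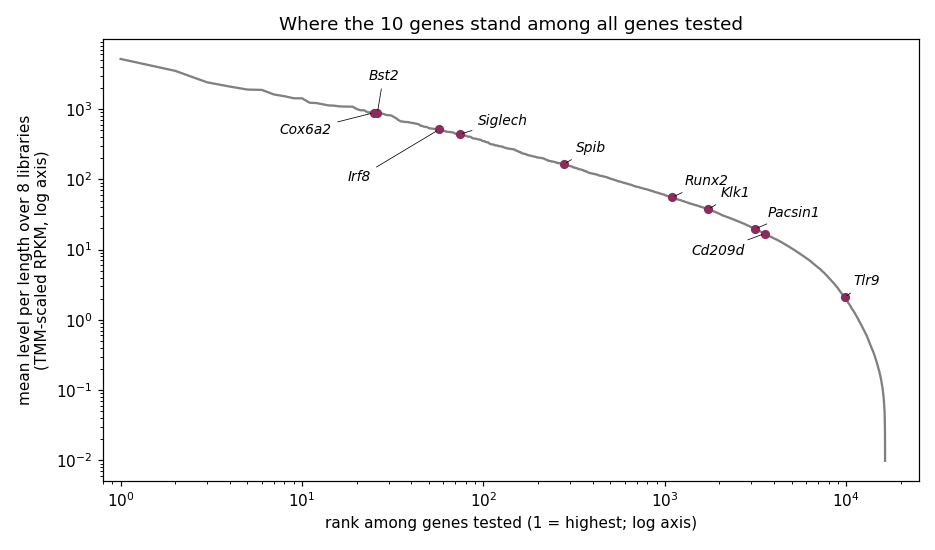
Mean level per length over the 8 libraries (TMM-scaled RPKM, log axis) against rank among the 16352 genes tested (log axis). The grey line is all genes and the points are the 10 genes, of which Cox6a2, Bst2, Irf8 and Siglech stand in the first 74 ranks and Tlr9 at rank 9774.

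None of the 10 genes differed between knockout and wild type beyond the spread between libraries. In the edgeR quasi-likelihood fit, with p-values adjusted by Benjamini and Hochberg over all 16352 genes, 0 of the 10 were called, and each had an adjusted p of 0.999. The background was 0 genes called of 16352 (0.0%). Trerf1, the targeted gene, was itself not called by edgeR, with a log2 fold change of -0.867 ± 0.205 (SE), an unadjusted p of 0.0015 and an adjusted p of 0.999. The absence of calls therefore does not show that the 10 genes were unchanged. At an unadjusted p under 0.05 there were 0 of the 10 and 322 of all genes (1.97%), and DESeq2 and limma-voom also called 0 genes. WT and KO libraries overlapped for every one of the 10, where 1.28% of all genes had groups that did not overlap (0.74% with KO above and 0.544% with KO below). Estimates were higher in knockout for 3 genes and lower for 7, with a median log2 fold change of -0.05, beside 48.3% of all genes lower and a median of 0.01.

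**Figure D2:**
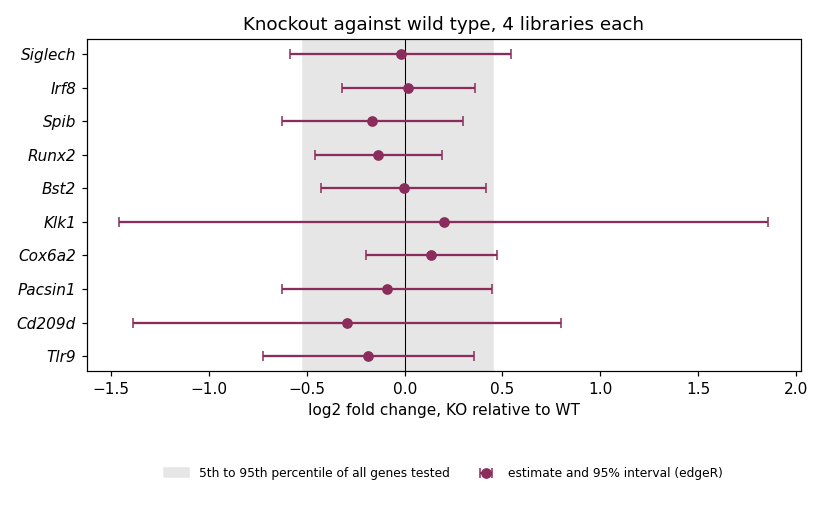
Log2 fold change of knockout relative to wild type for each of the 10 genes, with the 95% interval from edgeR (4 libraries per group). The grey band is the 5th to 95th percentile of all genes tested, -0.52 to 0.45, and every interval crosses 0.

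Siglech (ENSMUSG00000051504.19, chromosome 7, 55417926 to 55428673, plus strand; positions here and below are GRCm39, from the count files) encodes the surface lectin by which the cells are usually sorted. It was at 1486, 1113, 969 and 2413 CPM in WT1 to WT4 and at 1530, 1120, 1523 and 1724 CPM in KO1 to KO4. WT4 was the highest library and WT3 the lowest, and all KO values lay between them. Wild type averaged 1495 ± 650 CPM and knockout 1474 ± 254 CPM (SD, 4 libraries per group). The log2 fold change was -0.02 ± 0.26 (SE), with a 95% interval from a fold of 0.666 to 1.46. Without WT4 it was 0.31, and without WT4 and the library labelled KO4 it was 0.23. With all WT libraries kept it was also above 0 without KO2 (0.09), so the estimate had no stable sign.

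The 3 transcription factors of the set overlapped between genotypes. Irf8 (ENSMUSG00000041515.11, chromosome 8, 121463097 to 121483433, plus strand), needed by dendritic cell and B-lineage progenitors, was at 3434, 3073, 3087 and 4800 CPM in wild type and at 3992, 3621, 3873 and 3085 CPM in knockout. Its log2 fold change was 0.02 ± 0.15 (SE), the interval running from a fold of 0.799 to 1.28. Spib (ENSMUSG00000008193.14, chromosome 7, 44175417 to 44181495, minus strand), an ETS factor shared with B cells, was at 619, 424, 348 and 601 CPM in wild type and at 575, 336, 473 and 393 CPM in knockout. WT1 and WT4 were its highest libraries and KO2 its lowest, and the log2 fold change was -0.16 ± 0.21 (SE).
Runx2 (ENSMUSG00000039153.18, chromosome 17, 44806874 to 45125684, minus strand), which guides the exit of plasmacytoid dendritic cells from marrow, lies 2.33 Mb from Trerf1 on the same chromosome. It was at 451, 488, 441 and 668 CPM in wild type and at 518, 393, 440 and 515 CPM in knockout. All KO values lay below WT4, but they overlapped the other 3 WT libraries, and the log2 fold change was -0.13 ± 0.15 (SE), with a fold interval of 0.726 to 1.14.

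Among the surface, mitochondrial and trafficking genes, Bst2 (ENSMUSG00000046718.9, chromosome 8, 71986899 to 71990100, minus strand) was at 732, 642, 611 and 1159 CPM in wild type and at 874, 668, 822 and 768 CPM in knockout. The log2 fold change was -0.005 ± 0.19 (SE), with a fold interval of 0.745 to 1.33. Cox6a2 (ENSMUSG00000030785.9, chromosome 7, 127804607 to 127805559, minus strand) was at 494, 502, 583 and 727 CPM in wild type and at 618, 724, 692 and 502 CPM in knockout. It was the only one of the 10 whose lowest library was one with Xist, WT1, and its log2 fold change was 0.14 ± 0.15 (SE), with a fold interval of 0.873 to 1.39. Pacsin1 (ENSMUSG00000040276.16, chromosome 17, 27874483 to 27930456, plus strand) lies 19.5 Mb from Trerf1 on the same chromosome. It was at 141, 86.3, 98.8 and 205 CPM in wild type and at 135, 95.3, 139 and 130 CPM in knockout, with a log2 fold change of -0.09 ± 0.24 (SE).

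Klk1 and Cd209d were the variable members. Klk1 (ENSMUSG00000063903.6, chromosome 7, 43874784 to 43879042, plus strand) was at 79.6, 16.2, 11.3 and 43.1 CPM in wild type and at 109, 7.78, 21.1 and 34.1 CPM in knockout. KO1 was 14.1 times KO2, and the SD of its log2 CPM over the 8 libraries, 1.33, exceeded that of 99.0% of genes tested (median 0.27). The log2 fold change was 0.20 ± 0.75 (SE), with a fold interval of 0.364 to 3.63, the widest of the 10.
Cd209d (ENSMUSG00000031495.9, chromosome 8, 3921824 to 3928555, minus strand) was at 31.0, 7.33, 9.57 and 20.6 CPM in wild type and at 27.8, 7.68, 9.93 and 10.5 CPM in knockout. WT1 and KO1 were the highest libraries of both genes. The log2 fold change of Cd209d was -0.29 ± 0.50 (SE), with a fold interval of 0.382 to 1.74. Tlr9 (ENSMUSG00000045322.11, chromosome 9, 106099797 to 106104082, plus strand) was low in every library, at 7.86, 8.62, 4.54 and 9.89 CPM in wild type and 7.42, 5.34, 6.70 and 7.72 CPM in knockout, from 148 to 693 counts. Its log2 fold change was -0.19 ± 0.25 (SE).

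**Figure D3:**
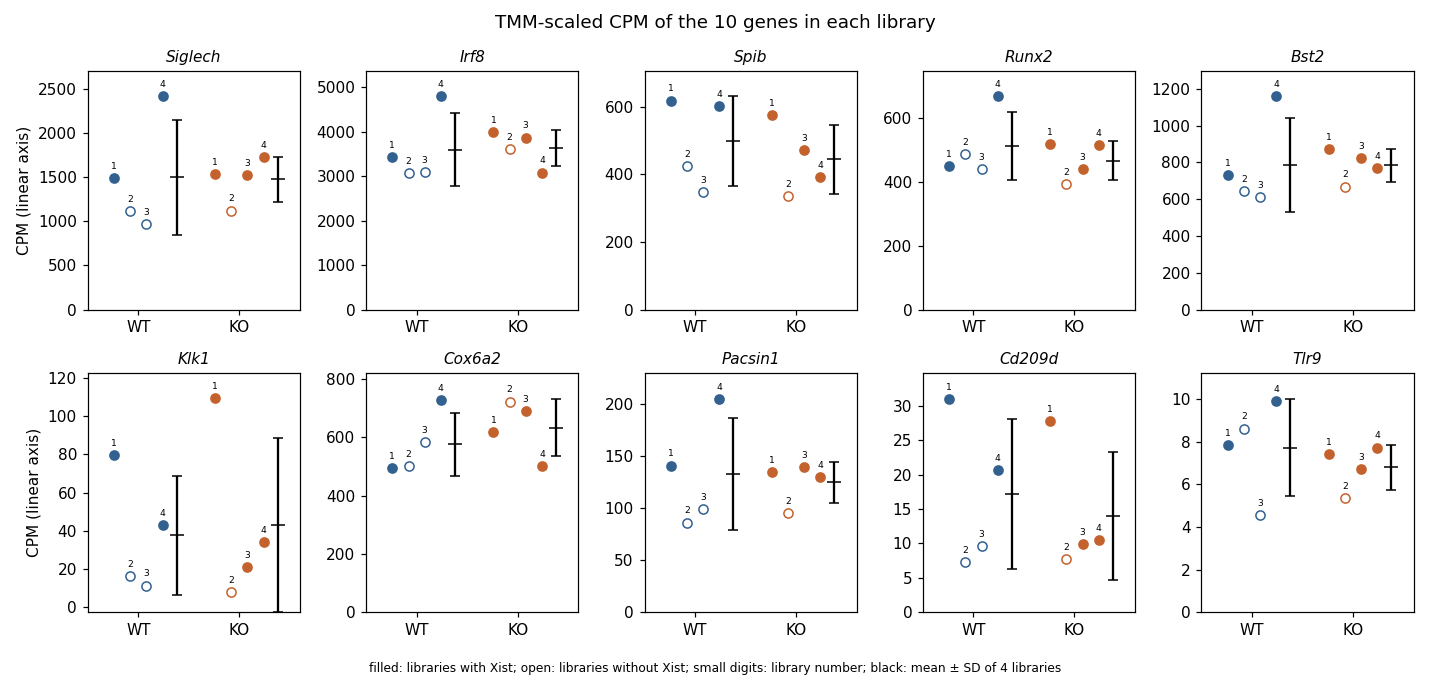
TMM-scaled CPM of each of the 10 genes in each library (linear axes), WT in blue and KO in orange, with the mean ± SD of 4 libraries in black. WT and KO overlap in every panel, and for Siglech, Bst2, Klk1, Pacsin1 and Cd209d the 3 open points (libraries without Xist) lie below all filled ones.

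For 5 of the 10 genes, each of the 5 libraries with Xist lay above each of the 3 without, whereas 5.91% of all genes tested did so (7.38% of those with a mean of at least 5 CPM). Siglech was at 1486 to 2413 CPM with Xist and 969 to 1120 CPM without, a ratio of means of 1.63. Klk1 was at 21.1 to 109 against 7.78 to 16.2 CPM and Cd209d at 9.93 to 31.0 against 7.33 to 9.57 CPM, with ratios of 4.89 and 2.44. Pacsin1 was at 130 to 205 against 86.3 to 98.8 CPM and Bst2 at 732 to 1159 against 611 to 668 CPM.
The other 5 genes overlapped between these libraries, and Cox6a2 had almost the same mean in both, 607 and 603 CPM. No gene of the 10 lay lower in all libraries with Xist, as 3.89% of all genes did. WT4 was the highest library for 7 of the 10, and 1 of WT2, WT3 and KO2 was the lowest for 9. Each genotype holds libraries of both kinds, 2 and 2 in wild type and 3 and 1 in knockout. These sets were read from the data and not from the labels, so they are described and not tested.

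The knockout estimates were also taken within each set of libraries. Among the 5 libraries with Xist (2 WT, 3 KO), 10 of 10 genes had lower estimates in knockout, where 48.1% of all genes were lower. The median log2 fold change of the 10 was -0.25. The WT side there was WT1 and WT4, and WT4 was the highest library for 7 of the 10, so these estimates lean on that library. By edgeR 0 of the 10 passed an unadjusted p under 0.05, beside 1.54% of all genes, and 0 genes an adjusted one. Among the 3 without, KO2 was the single KO library beside 2 WT and is assumed to vary as they do, so this fit has no replicate check of knockout. There 5 of the 10 were lower and 5 higher, and 4 genes were called (0.0228%), none of the 10. At an unadjusted p under 0.05 it held 2 of the 10, Klk1 (log2 fold change -0.85) and Cox6a2 (0.40), beside 10.6% of all genes. With WT4 left out, 7 of the 10 were higher. With WT4 and the library labelled KO4 both left out, 6 were higher and 4 lower. In that fit 12 genes were called in all (0.0736%), each lower in knockout, and 0 of the 10 were among them. Trerf1 was among the 12, with a log2 fold change of -1.2 and an adjusted p of 0.047 by edgeR. At an unadjusted p under 0.05 that fit held 2 of the 10, Cox6a2 (log2 fold change 0.36) and Irf8 (0.26), beside 8.75% of all genes. Whether the lower estimates among libraries with Xist differ from those without was not tested.

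Many other genes of the plasmacytoid programme were also higher in the libraries with Xist. The list holds 25 further genes, all of them tested, of which 13 had higher and 12 lower estimates in knockout (median log2 fold change 0.01); 0 were called, and 0 had an unadjusted p under 0.05. The list was written with earlier results of these data known. Of the 25, 15 lay higher in all 5 libraries with Xist than in the 3 without, beside the 5.91% of all genes, and 1 lay lower.
Pld4, an endosomal nuclease of these cells, was at 1125 to 1994 CPM with Xist and 722 to 964 CPM without. Mpeg1, a pore-forming protein of phagocytes, was at 2243 to 2953 against 1437 to 2063 CPM, Rnase6 at 534 to 752 against 341 to 369 CPM and Tex2 at 699 to 960 against 519 to 642 CPM. The only gene lower in all libraries with Xist was Dntt, which adds untemplated bases to rearranging antigen receptors, at 853 to 1792 CPM with Xist and 2355 to 3025 CPM without. Others of the list overlapped. Among its most abundant genes these were Ly6d, at 2856 to 4708 against 2993 to 4905 CPM, and Unc93b1, at 1168 to 1644 against 937 to 1211 CPM.

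**Figure D4:**
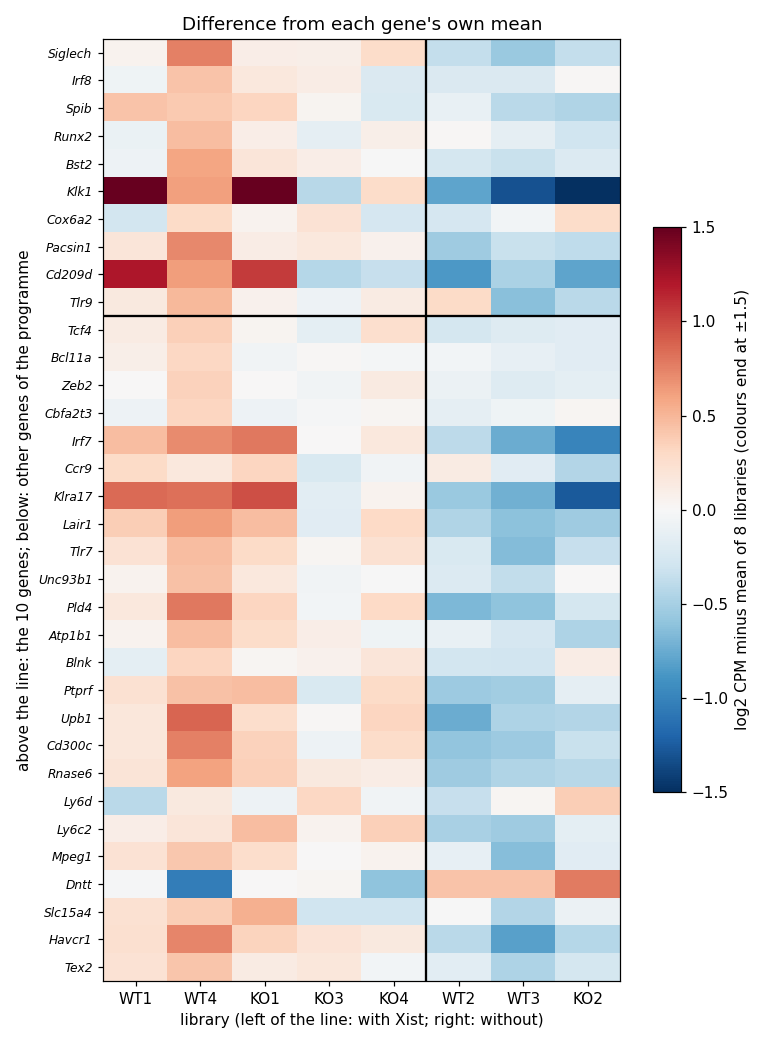
Log2 CPM minus the gene's own mean over the 8 libraries, for the 10 genes (above the line) and 24 other genes of the programme (below). The 5 libraries with Xist stand left of the vertical line and the 3 without stand right of it. WT4 is the reddest column, the right block is mostly blue, and Dntt runs the other way.

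Regulators and sensors of the list, named after their values were seen, followed it to different degrees. Tcf4 was at 806 to 1148 CPM with Xist and 744 to 792 CPM without, a small gap. Irf7, the interferon-inducing factor, was at 187 to 319 against 92.8 to 141 CPM and Tlr7 at 106 to 142 against 65.9 to 88.4 CPM. Klra17, an inhibitory receptor of mature plasmacytoid dendritic cells, was at 20.4 to 44.5 against 9.44 to 15.4 CPM. Bcl11a, an upstream regulator of Tcf4, overlapped, at 450 to 578 against 417 to 456 CPM.
By level per length the list was led by Ly6d, a marker of lymphoid progenitors of B and plasmacytoid potential, at 5175 RPKM and rank 1 of all genes tested. Dntt followed at 820 RPKM (rank 30), Mpeg1 at 528 (rank 52), Unc93b1, the chaperone of the endosomal receptors, at 405 (rank 84) and Pld4 at 351 (rank 99). In all, 11 of the 25 stood in the top 5% of genes tested, as did 5 of the 10. The smallest p-values of the list did not pass. Ly6c2 had a log2 fold change of 0.35 ± 0.19 (SE), Ly6d of 0.28 ± 0.16, Blnk of 0.17 ± 0.14 and Bcl11a of -0.12 ± 0.11, each with an adjusted p of 0.999 by edgeR.

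Genes of the sensing pathway around Tlr9 were detected, and the type I interferon genes were at or near 0. Of 20 genes of endosomal nucleic acid sensing, 18 were tested, 11 with higher and 7 with lower estimates in knockout (median log2 fold change 0.05), and 0 were called. Its most abundant members per length were Ctsb, a lysosomal protease, at 515 RPKM, Unc93b1 at 405 RPKM and Hsp90b1, a chaperone of the receptors, at 315 RPKM. Tlr7 was at 26.1 RPKM and Tlr9 at 2.09 RPKM, so Tlr7 was the higher of the pair per length. Of the 17 type I interferon ligand genes listed, 9 had 0 counts in every library, and the highest, Ifnk, reached 232 counts in all 8 libraries together. The receptor genes Ifnar2 and Ifnar1 were at 76.4 and 53.5 RPKM.

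Summed markers of some other cell types also split by these libraries, and those of others overlapped. The part of any of them in the pattern was not tested. All 19 conventional dendritic cell markers were tested, 8 with higher and 11 with lower estimates in knockout (median log2 fold change -0.02), 0 called and 1 (Ccr7) at an unadjusted p under 0.05. Their summed level was 2149 to 3839 CPM in the libraries with Xist and 1721 to 1961 CPM in those without, and 6 of the 19 lay higher in all libraries with Xist (Cd74, H2-Ab1, Clec10a, Cd209a, Clec9a and Irf4), beside 5.91% of all genes. Most of the sum was Cd74 and Cst3, at 656 and 412 RPKM, followed by H2-Ab1 at 102 RPKM, which plasmacytoid dendritic and B cells also express. Single markers ran from 0.170 RPKM (Esam) upwards, and none was at 0. Ccr7 was at 40.3, Clec10a at 36.5, Cd209a at 32.0, Itgax at 22.7, Sirpa at 20.9 and Clec9a at 4.40 RPKM, and Batf3, Xcr1 and Zbtb46 were at 0.827, 0.469 and 0.314 RPKM.
Monocyte and macrophage markers summed to 723 to 852 CPM with Xist and 526 to 707 CPM without, and plasma cell markers to 924 to 1240 against 688 to 864 CPM. Of the monocyte markers 2 (Cd68 and Ccr2) lay higher in all libraries with Xist, and of the plasma cell markers 1 (Xbp1). Most of the plasma cell sum was Xbp1 and Sdc1, at 168 and 94.0 RPKM. Summed progenitor markers ran the other way, at 3095 to 4223 CPM with Xist and 4706 to 5912 CPM without. Dntt, their most abundant member and also in the plasmacytoid list, was at 853 to 1792 against 2355 to 3025 CPM. The sum was not taken without Dntt. Flt3, the next by level, overlapped, at 910 to 1175 and 935 to 1339 CPM. Of the 12 progenitor markers 3, Dntt among them, lay lower in all libraries with Xist, beside 3.89% of all genes. Summed B-lineage markers overlapped, at 1158 to 1328 and 1045 to 1332 CPM. Of these 16 markers 3 (Rag1, Rag2 and Igll1) lay lower in all libraries with Xist, beside 3.89% of all genes, and 1 (Fcrla) lay higher. Summed markers of T, NK and innate lymphoid cells also overlapped, at 313 to 474 and 253 to 655 CPM, with 1 of the 13 higher and 1 lower. Neutrophil, erythroid and basophil or mast cell markers overlapped as well, erythroid ones from 48.1 to 668 CPM. Basophil and mast cell sums went with the library number, at 50.9, 64, 195 and 308 CPM in WT1 to WT4. In KO1 to KO4 they were 48.9, 58.6, 129.5 and 370.5 CPM.

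The same lists can be read by genotype. Summed B-lineage markers ran from 1045 to 1227 CPM in wild type and from 1257 to 1332 CPM in knockout. Of the 16, 13 had higher estimates (median log2 fold change 0.20), where 8461 of all 16352 genes tested were higher. Of these markers 0 were called by edgeR, and 1, Cd79a (log2 fold change 0.38), had an unadjusted p under 0.05. Cd79a was at 83.55 to 97.9 CPM in wild type and 93.7 to 134 CPM in knockout, so its groups overlapped. The largest part of the sum was Il7r, which encodes the sorted CD127, at 269 to 374 CPM in wild type and 304 to 415 CPM in knockout. The sum was not taken without it. The groups overlapped for Il7r and for the 2 markers above it per length, Cd79b (79.3 to 150 and 118 to 178 CPM) and Fcrla (97.1 to 198 and 125 to 192 CPM). Monocyte markers had 9 of 9 tested genes higher (median 0.24) and erythroid markers 10 of 10 lower (median -1.03), with 0 called in either list. The erythroid sum was 668, 259, 57 and 53 CPM in WT1 to WT4 and 269, 148, 48 and 49 CPM in KO1 to KO4, so its direction leans on WT1. Of the neutrophil markers 7 of 8 were higher, of the progenitor markers 10 of 12, of the plasma cell markers 4 of 5, of the basophil and mast cell markers 3 of 6, and of the T, NK and innate lymphoid markers 6 of 13, with 0 called. An unadjusted p under 0.05 by edgeR was reached by 2 monocyte, 1 neutrophil, 2 progenitor, 1 plasma cell and 1 T, NK and innate lymphoid marker. Of all genes tested 1.97% reached it. Among the neutrophil markers, S100a8 was at 12.3 CPM in KO1 and at 0.185, 0.307 and 2.29 CPM in KO2 to KO4, so its estimate leans on 1 library. Prtn3 did not lean so, at 24.8, 27.7, 12.4 and 16.8 CPM in KO1 to KO4, but its groups overlapped. In WT1 to WT4 it was at 17.9, 6.17, 8.16 and 13.6 CPM. Beside these, the 10 plasmacytoid genes summed to 6163 to 10650 CPM in wild type and to 6979 to 8387 CPM in knockout, so the KO libraries lay inside the WT range.

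Genes whose library profile came closest to that of Siglech were found among 8740 genes with a mean of at least 10 CPM. Genes with Gm-number or Rik symbols, or with an identifier alone, were left out beforehand. The measure was the root mean square difference of log2 CPM after centring each gene over the 8 libraries. The 5 closest were Fgr (0.09), Trim30d (0.09), Rab10os (0.10), Stk38l (0.10) and Nek6 (0.11). Fgr, a Src family kinase of myeloid cells, was at 309, 213, 231 and 511 CPM in WT1 to WT4 and at 337, 228, 316 and 344 CPM in KO1 to KO4, with the same high library, WT4. Of the 8 other members at that level, Pacsin1 (0.14, place 21) and Bst2 (0.16, place 48) were the closest to Siglech. Klk1 was the farthest, at 1.05 and place 8718.

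Some members belong to families or overlap other genes, which limits what their counts can say. Of the Klk1 copies with at least 1 CPM on average, only Klk1b27 was found, at 10.8, 1.34, 1.104 and 8.15 CPM in wild type and 14.2, 3.06, 5.01 and 4.86 CPM in knockout, so Klk1 stood 2.55 to 12.1 times above it. The number of counts per RSEM expected count was 3.64 for Klk1 and 4.27 to 4.91 for the other 9 genes, beside 3.79 over all genes. RSEM, which shares out reads among copies, gave Klk1 a log2 fold change of 0.23 and Cd209d one of -0.27. Cd209a, a relative of Cd209d that marks monocyte-derived and conventional dendritic cells, was at 23.1 to 90.4 CPM and Cd209c at 0.555 to 5.68 CPM. Of the Siglech relatives, Siglecg (89.4 to 151 CPM), Cd22, Cd33, Siglece and Siglecf were expressed at no more than 151 CPM. Cox6a1, the widespread form of the subunit, was at 259 to 324 CPM, 420 RPKM against 890 RPKM for Cox6a2. Irf8, Runx2, Klk1 and Cox6a2 overlap other annotated genes. For Runx2, Klk1 and Cox6a2 these lie on the other strand, Cox6a2 within the span of Itgad. The count command in the file headers names no strand option, so reads from either strand cannot be told apart there. Irf8 overlaps Gm20388 on its own strand, where strand would not separate the reads.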

How the data were processed

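RNA of 8 libraries was aligned and counted by the authors with STAR 2.6.0a, Picard 2.19, featureCounts 1.6.4 and RSEM 1.3.1, per the submitters' processing notes, which name mm10, whereas the headers of the 8 count files name a GRCm39 annotation. The authors deposited whole-number counts per gene (featureCounts) and, from RSEM, expected counts and TPM per gene. Gene identifiers were matched to symbols for 52093 of 53647 genes (97.1%). Low counts were removed with filterByExpr, libraries were scaled by TMM, and knockout was tested against wild type with edgeR 4.0.16 (quasi-likelihood, adjusted p under 0.05), in R 4.3.3. The SE is the absolute log2 fold change divided by the square root of F, and intervals are 95%. DESeq2 1.42.0, limma 3.58.1 (voom) and RSEM expected counts rounded to whole numbers were alternatives, and the code was tested on simulated data. With 31109744 to 73414626 counts per library, the spread between libraries (biological coefficient of variation 26.9%) sets the precision. RSEM expected counts totalled less, 8442756 (WT3) to 19286713 (WT4), at 3.67 (KO1) to 4.00 (KO4) counts per expected count. A count therefore need not stand for 1 independent fragment, and the reason was not tested. The labels do not say what the library numbers pair, so the main fit used no pairing and a block by number was an alternative. Deviations of same-numbered libraries correlated at -0.031 to 0.362, so some pairs deviated together and the main fit ignores this.

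The genes and lists were chosen with earlier results of these data known. Genes named are the 10, the 8 most abundant and 4 lowest-p of the other plasmacytoid list (1 gene of that list is counted but not reported here by name), up to 3 per other list by level, copies at 1 CPM or more, and the 5 nearest Siglech. Tcf4, Irf7, Tlr7, Klra17, Cd68, Ccr2, Rag1, Rag2, Igll1 and Cd79a were named after their values were seen. So were the conventional dendritic cell markers beyond the 3 most abundant. The division of the libraries by Xist (10 CPM) was also made after values were seen.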

Additional observations from a re-analysis of the deposited data

Results flagged for a closer look

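One of the 20 combinations of a gene and a group held a library far from the others. Cd209d was at 27.8 CPM in KO1 and at 7.68 to 10.5 CPM in the other 3 KO libraries, a gap that took 0.862 of the whole range, above Dixon's 95% critical value for 4 samples. Chance flags about 1 in 20 groups.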

How the results depend on the processing

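Of 210 alternative fold changes of the 10 genes, 170 kept their direction, 40 reversed and 0 passed an adjusted p under 0.05; Spib alone never reversed. By edgeR no gene was called in all libraries or without any 1 library, but 12 were without WT4 and the library labelled KO4, and 4 among the 3 libraries without Xist, a fit with a single KO library assumed to vary like the WT ones. The causes were not tested. Reversed log2 fold changes were, for Siglech, 0.17 with limma-voom, 0.054 with the replicate block, 0.23 without WT4 and KO4, 0.18 in the 5 shallower libraries and 0.084 without Xist. For Bst2 these were 0.16, 0.039, 0.25, 0.23 and 0.073. For Pacsin1 they were 0.11 with limma-voom, 0.18 without WT4 and KO4, 0.039 in the shallower libraries and 0.024 without Xist. Irf8 was at -0.003 with library size alone, -0.014 with Xist as covariate and -0.18 with Xist; Klk1 at -0.28 with the covariate, -0.17 with Xist and -0.85 without. In the shallower libraries Runx2 was at 0.015 and Tlr9 at 0.066, and in those with Xist Cox6a2 was at -0.021 and Blnk at -0.019. Leaving out 1 library gave -0.18 to 0.31 for Siglech, -0.058 to 0.19 for Irf8, -0.20 to 0.022 for Runx2, -0.11 to 0.24 for Bst2, -0.84 to 0.86 for Klk1, -0.26 to 0.20 for Pacsin1 and -0.88 to 0.15 for Cd209d.

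The replicate block called 0 genes. By edgeR 634 genes had an unadjusted p under 0.05 with the block, beside 322 without it, and 0 of the 10 were among the 634. Same-numbered deviations correlated at 0.362, 0.309, -0.031 and 0.119, and 4 of 8 libraries correlated best with their own number. Thus 3 of 4 pairs had a correlation above 0, the lowest of them 0.119, and the pairing remained unsettled. The libraries of pairs 1, 2 and 4 were alike in Xist, and those of pair 3, at -0.031, were not. The parts of library number and of Xist in these correlations were not tested. The median of the 10 genes stood above 95.8% of genes tested, 92.6% by RSEM TPM, 98.4% by CPM without length and 97.7% among all genes with any count. The subsets by Xist were chosen after seeing the data.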
